A study of Homo sapiens with 3 samples.

Results

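The genes described here are 9 targets of the transcription factor NRF2 that protect cells from oxidants and reactive chemicals: GCLC, GCLM, SLC7A11, TXNRD1, SRXN1, NQO1, AKR1B10, AKR1C1 and HMOX1. They were chosen by name, by matching these symbols to the Ensembl identifiers of an RNA-Seq table that holds 60504 identifiers, and all 9 were found. The table covers DLD1, an established colorectal cancer cell line, with 1 library of DLD1 control cells, labelled wild type, and 2 libraries of BEX2-/- DLD1 cells, in which BEX2 was knocked out with CRISPR/Cas9. The knockout libraries came from separate clones, here called clone 1 and clone 2, and both were compared with the same control library. Each clone is a single line, and the sources used here do not say whether the control cells had also been cloned or had received Cas9. Differences caused by the loss of BEX2 and differences between cloned lines cannot be told apart.

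NRF2, encoded by NFE2L2, is normally bound by KEAP1, which brings it to a CUL3 ubiquitin ligase for degradation. Oxidants and electrophiles modify KEAP1, and NRF2 then enters the nucleus, pairs with small MAF proteins and binds antioxidant response elements (AREs) near its targets. BACH1 binds similar elements as a repressor, above all at HMOX1. In intestinal epithelium and in colorectal cancer, the targets maintain glutathione and thioredoxin, reduce quinones and aldehydes, and break down haem.

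The upstream sequences of the members with a match to the letters of an ARE are shown, since AREs are the elements that NRF2 is known to bind. Windows of 300 bases, from 250 before to 50 after an annotated start, were taken from RefSeq (GRCh38.p14) and were given for 6 of the 9 members, in 7 windows. The motif searched was TGACNNNGC on both strands, and capitals mark each match. A match on the strand opposite to the gene appears as the reverse complement. GCLM lies on the minus strand and its window covers chr1:93909381-93909680. Both TXNRD1 windows lie on the plus strand, at chr12:104215529-104215828 for the upstream start and chr12:104286782-104287081 for the downstream start.
GCLM: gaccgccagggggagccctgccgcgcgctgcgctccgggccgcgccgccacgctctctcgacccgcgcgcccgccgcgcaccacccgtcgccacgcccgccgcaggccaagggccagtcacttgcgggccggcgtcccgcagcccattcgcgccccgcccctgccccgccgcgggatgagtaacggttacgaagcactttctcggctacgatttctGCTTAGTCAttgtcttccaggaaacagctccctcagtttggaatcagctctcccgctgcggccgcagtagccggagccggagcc
TXNRD1, upstream start: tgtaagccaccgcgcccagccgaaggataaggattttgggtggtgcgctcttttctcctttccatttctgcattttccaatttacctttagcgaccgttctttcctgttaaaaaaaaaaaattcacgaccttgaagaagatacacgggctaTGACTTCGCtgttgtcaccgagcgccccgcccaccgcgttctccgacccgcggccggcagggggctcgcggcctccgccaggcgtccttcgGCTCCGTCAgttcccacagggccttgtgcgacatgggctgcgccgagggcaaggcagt
TXNRD1, downstream start: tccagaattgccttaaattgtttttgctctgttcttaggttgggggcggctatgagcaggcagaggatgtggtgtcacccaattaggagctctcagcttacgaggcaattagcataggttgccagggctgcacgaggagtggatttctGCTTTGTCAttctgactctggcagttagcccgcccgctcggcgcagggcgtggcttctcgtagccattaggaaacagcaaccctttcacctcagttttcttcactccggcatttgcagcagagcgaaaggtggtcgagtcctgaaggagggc

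The matches lay in 3 windows of 2 members. The GCLM match began at -34 relative to the start. In TXNRD1 the matches began at -99 and -8 of the upstream start and at -102 of the downstream start. Of all 35116 promoter windows, 13.3% held the same motif. The AP-1 motif TGANTCA, which resembles the ARE and was searched because AP-1 factors can bind both, had no match in the members' windows and was present in 7.71% of all windows. The search was chosen after the expression values were seen. A match is a run of letters and does not show binding. A window without a match does not show that the gene lacks an ARE, since bases farther from the start were not searched.

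Values are FPKM, fragment numbers corrected for gene length and library depth. A comparison of levels between genes therefore depends on the length assigned to each gene. Ratios are differences of log2(FPKM + 1), which understate changes of low genes. Ratios of FPKM are also given, with exact 95% (Clopper-Pearson) intervals on reads recovered from the values. These intervals cover counting error only and compare libraries, not conditions. No test was run and no p-value is given, since the control had 1 library and a fit would take its spread from the 2 clones alone. The recovered depth was 47458851 reads for the control, 35593989 for clone 1 and 47722375 for clone 2. BEX2 itself was listed at 0 FPKM in all 3 libraries, where 3 reads would give 0.0717 FPKM or less, so the knockout could not be checked from the table. The sum of 7 epithelial markers was 1600 to 1855 FPKM, with VIL1 (villin) at 3.61 FPKM in the control, 13.2 in clone 1 and 0.221 in clone 2. No fibroblast, endothelial or blood marker reached 1 FPKM. Their sums were 0.129 to 0.634 FPKM for 5 fibroblast markers, with the highest value in clone 1 from PDGFRB at 0.602 FPKM, 0.0649 to 0.0784 FPKM for 3 endothelial markers and 0 to 0.0295 FPKM for 3 blood markers. Of these, COL3A1, CDH5, PTPRC and HBB were at 0 in every library. The part of VIL1, PDGFRB or the lower depth of clone 1 in the results was not tested.

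The 9 targets did not move as 1 group. In clone 1, 8 of the 9 were above the control in FPKM and only SRXN1 was below it, while 56.2% of all genes that passed a filter on low values were above. In clone 2, 3 were above the control, namely NQO1, TXNRD1 and SRXN1, and 6 were below it, with 48.4% of all genes above. A gene passed this filter when its control level, averaged with the mean over both clones, was at least 1 FPKM. Among the 6 members that passed, the median log2 ratio was 0.63 in clone 1 and -0.05 in clone 2, beside 0.04 and -0.01 over the 11675 genes that passed. Scaled to TPM, the clone 2 median of the members turned to 0.01, while that of all genes rose to 0.05. The median of the ratios averaged over both clones was 0.30, against 0.02 for all genes. It rests on clone 1, since it was 0.63 without clone 2 and -0.05 without clone 1. The filter left out SRXN1, AKR1C1 and AKR1B10, so the counts of 9 include genes that the shares of all genes leave out. Of the 6 that passed, 6 were above the control in clone 1 and 2 in clone 2. Intervals for counting error lay above 1 for 7 of the 9 in clone 1 and below 1 for 0. In clone 2 they lay above 1 for 2 and below 1 for 3. The remaining members could not be told apart from the control by counting error.

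**Figure D1:**
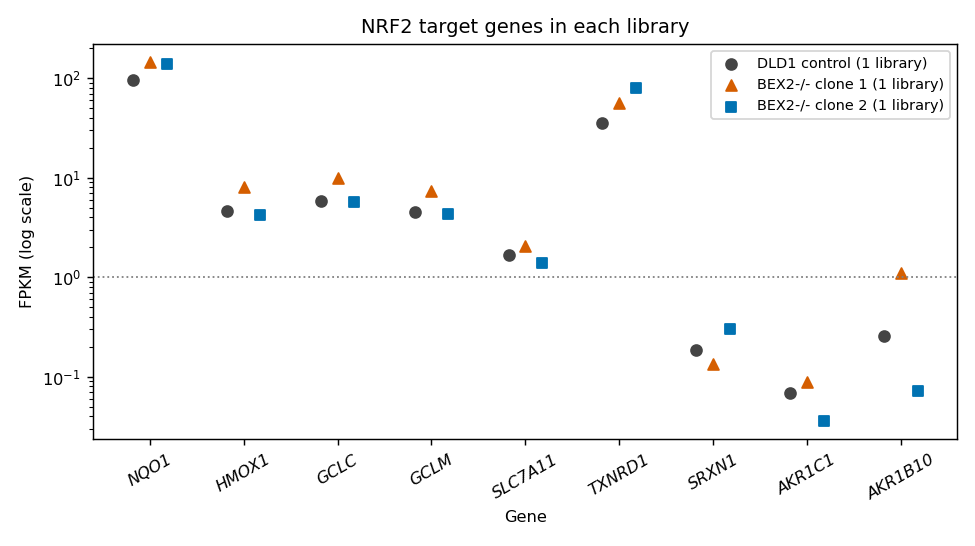
FPKM (log axis) of the 9 NRF2 target genes in the DLD1 control, clone 1 and clone 2, with 1 point for each library. NQO1 and TXNRD1 lie above the control in both clones, while HMOX1, GCLC and GCLM lie above it in clone 1 and close to it in clone 2.

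Glutathione synthesis begins with glutamate-cysteine ligase, whose catalytic subunit is GCLC and whose modifier subunit is GCLM. GCLC (ENSG00000001084, chr6:53497341-53616970, minus strand) measured 5.83 FPKM in the control, 9.99 in clone 1 and 5.65 in clone 2. GCLM (ENSG00000023909, chr1:93885205-93909456, minus strand) measured 4.53 FPKM in the control, 7.33 in clone 1 and 4.30 in clone 2. For both subunits clone 1 stood apart, and clone 2 lay beside the control. The clone 1 value was 1.71 times the control for GCLC (1.62 to 1.81) and 1.62 times for GCLM (1.5 to 1.75), with log2 ratios of 0.69 and 0.59. In clone 2 the intervals included 1, at 0.969 times the control for GCLC (0.915 to 1.03) and 0.95 times for GCLM (0.874 to 1.03). Between the clones, clone 1 was 1.77 times clone 2 for GCLC and 1.71 times for GCLM. The mean of the clones was 7.82 ± 3.07 FPKM (SD, n = 2) for GCLC and 5.82 ± 2.15 FPKM (SD, n = 2) for GCLM, so the control lay within 1 SD of that mean for both. Here and below, this SD describes how far the 2 clones lie apart and gives no spread of control cells.

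SLC7A11 (ENSG00000151012, chr4:138164097-138242349, minus strand) is the transport chain of the cystine and glutamate exchanger, which supplies cysteine for glutathione. It was listed at 1.68 FPKM in the control, 2.05 in clone 1 and 1.39 in clone 2, the lowest level of the members that passed. The clones fell on opposite sides of the control. The ratio of clone 1 to the control was 1.2 (1.10 to 1.35) and that of clone 2 was 0.825 (0.742 to 0.918). On the log2 scale these were 0.18 and -0.17. SLC3A2, the heavy chain that carries SLC7A11 to the membrane, was listed at 57.9 FPKM in the control, 41.3 in clone 1 and 48.1 in clone 2, below the control in both. Both genes also respond to ATF4, the factor of the amino acid stress response. Of 9 ATF4 genes, SLC3A2 among them, 0 reached a 2-fold change on the log2(FPKM + 1) scale in any pair of libraries, where 2.02% of all genes did so in clone 1, 2.06% in clone 2 and 4.19% between the clones. Their median log2 ratio was -0.18 in clone 1 and -0.37 in clone 2.

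The thioredoxin arm held the 1 member that passed the filter and reached 2-fold from the control on the log2(FPKM + 1) scale. TXNRD1 (ENSG00000198431, chr12:104215779-104350305, plus strand), the cytosolic selenoenzyme that reduces thioredoxin, measured 35.3 FPKM in the control, 56.2 in clone 1 and 80.7 in clone 2. Both clones were above the control, and clone 2 was above clone 1. The ratio to the control was 1.59 in clone 1 (1.55 to 1.63) and 2.28 in clone 2 (2.23 to 2.34). Their log2 ratios were 0.66 and 1.17, and the ratio of clone 2 to clone 1 was 1.44. The mean of the clones was 68.4 ± 17.3 FPKM (SD, n = 2), and the control lay more than 1 SD under it. This was the only member of the 6 whose clone 2 value exceeded the clone 1 value. Of the 50-base windows of its annotated transcripts, 0 were shared with another gene. EID3, which lies inside the span of TXNRD1 and has no exon bases in common with it, had 20 reads in the control, 31 in clone 1 and 64 in clone 2.

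SRXN1 (ENSG00000271303, chr20:646615-653370, minus strand), which restores overoxidised peroxiredoxins, had few reads in every library. It was listed at 0.187 FPKM in the control, 0.135 in clone 1 and 0.303 in clone 2, from 24, 13 and 39 reads. Clone 2 was 2.24 times clone 1 (1.17 to 4.57), whereas neither clone could be told apart from the control by counting error. Of its 50-base windows, 84.7% were shared with another annotated gene, AL121758.1, so the assignment of its reads is uncertain. AL121758.1 covers 84.95% of the SRXN1 exon bases on the same strand. It had 7 reads in the control, 2 in clone 1 and 6 in clone 2. How reads in the shared bases were counted is not given, so the low FPKM may not show low expression.

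NQO1 (ENSG00000181019, chr16:69706996-69726951, minus strand), which reduces quinones with both electrons at once and is a standard readout of NRF2, was the most abundant member. It measured 95.5 FPKM in the control, 146 in clone 1 and 138 in clone 2. Both clones were above the control and they lay close to each other. Clone 1 was 1.53 times the control (1.49 to 1.56) and clone 2 1.44 times (1.41 to 1.47). Their log2 ratios were 0.60 and 0.52. The mean of the clones was 142 ± 5.79 FPKM (SD, n = 2), and the control lay more than 1 SD under it. Among the 6 members that passed the filter, the clones differed least in NQO1, with a log2 ratio of -0.08 of clone 2 to clone 1. Of its 50-base windows, 15.3% were shared with another annotated gene, mostly the antisense gene AC092115.2, which had 0 reads in every library.

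AKR1B10 and AKR1C1 are aldo-keto reductases, which convert reactive aldehydes and ketones to alcohols. AKR1B10 (ENSG00000198074, chr7:134527592-134541408, plus strand) was listed at 0.254 FPKM in the control, 1.11 in clone 1 and 0.0721 in clone 2, from 21, 69 and 6 reads. The values were highest in clone 1 and lowest in clone 2. Clone 1 was 4.38 times the control (2.66 to 7.52) and clone 2 0.284 times (0.094 to 0.728), and clone 1 was 15.4 times clone 2 (6.73 to 43.5). On the log2(FPKM + 1) scale the same ratios to the control were 0.75 and -0.23. AKR1C1 (ENSG00000187134, chr10:4963253-4983283, plus strand) was listed at 0.0692 FPKM in the control, 0.0890 in clone 1 and 0.0356 in clone 2, or about 29, 28 and 15 reads. Clone 2 was 0.514 times the control (0.256 to 0.991). Its near copy AKR1C2 was listed at 0.154, 1.06 and 0.0344 FPKM in the same order, and AKR1C3 had 1, 51 and 3 reads. All 4 reductases were thus highest in clone 1 by FPKM, although for AKR1C1 the difference between clone 1 and the control was within counting error. The 50-base windows shared with other genes made up 28.6% of those of AKR1C1 and 14.8% of those of AKR1B10, so reads could be split between family members. For SLC7A11 the shared windows made up 9.19%.

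HMOX1 (ENSG00000100292, chr22:35380361-35394214, plus strand), the inducible haem oxygenase that opens the haem ring and releases iron, measured 4.63 FPKM in the control, 8.01 in clone 1 and 4.22 in clone 2. Again clone 1 stood apart, and clone 2 lay slightly under the control. Clone 1 was 1.73 times the control (1.54 to 1.94), with a log2 ratio of 0.68. Clone 2 was 0.912 times the control (0.804 to 1.03), with a log2 ratio of -0.11. Clone 1 exceeded clone 2 by 1.90 times (1.69 to 2.14). The mean of the clones was 6.12 ± 2.68 FPKM (SD, n = 2), within 1 SD of which the control lay.

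**Figure D2:**
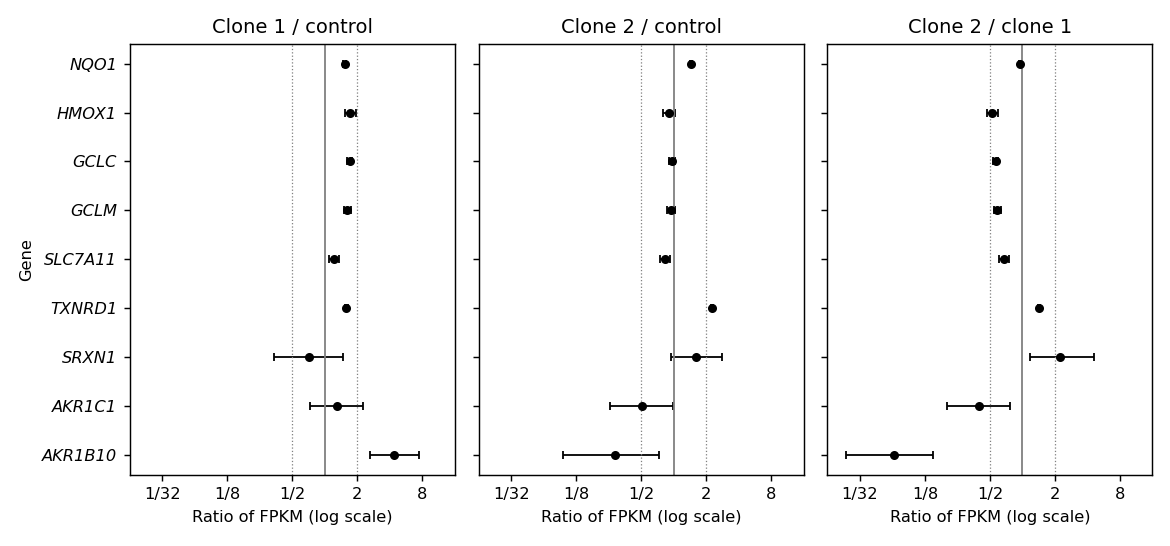
Ratio of FPKM (log axis) for each of the 9 members, as clone 1 to the control (left), clone 2 to the control (middle) and clone 2 to clone 1 (right), with 95% intervals for counting error, a solid line at 1 and dotted lines at a 2-fold change. In clone 1 the interval lies above 1 for 7 of the 9 genes, and in clone 2 it lies above 1 for TXNRD1 and NQO1 and below 1 for SLC7A11, AKR1C1 and AKR1B10. The share of all genes with such intervals was not counted. With many reads, small ratios also exclude 1, such as 1.12 for FTL (ferritin light chain) in clone 1 (1.10 to 1.14).

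By FPKM, the order in the control was NQO1, TXNRD1, GCLC, HMOX1, GCLM, SLC7A11, AKR1B10, SRXN1 and AKR1C1. This order depends in part on annotated gene length, and the place of SRXN1 also on how reads shared with AL121758.1 were counted. AKR1C1 came last with about 29 control reads over 8765 exon bases. SRXN1 had 24 over 2698 bases and AKR1B10 had 21 over 1744. HMOX1 and GCLM, neighbours in this order, differed by less than the SD of either gene between the clones and changed places in clone 2. AKR1B10 and SRXN1 also changed places there. The first 3 places were the same in every library.

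A change of at least 2-fold on the log2(FPKM + 1) scale was the main threshold. It was reached by 0 of the 6 members that passed the filter in clone 1, where 2.02% of all genes that passed did so. In clone 2 it was reached by 1 of 6, TXNRD1, beside 2.06% of all genes. Between clone 2 and clone 1 it was reached by 0 of 6, beside 4.19%. In the same direction in both clones it was reached by 0 of 6, beside 0.325%. After these counts were seen, the 1.5-fold threshold, listed as an alternative, was also read by direction. At 1.5-fold, 5 of the 6 members were higher in clone 1 than in the control, all but SLC7A11, beside 3.55% of all genes. With each library scaled by its median ratio this count fell to 3, since NQO1 and GCLM lay at the edge of the threshold. In clone 2 only TXNRD1 was at least 1.5-fold higher, 1 of 6 beside 4.77%, and it was also the 1 member of 6 that was higher in both clones, beside 0.574%. GCLC, HMOX1 and GCLM, 3 of 6, were at least 1.5-fold higher in clone 1 than in clone 2, beside 6.14% of all genes. For clone 2 against clone 1, the 6 members had a median of -0.50 on the log2 scale and all genes had one of -0.05.

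**Figure D3:**
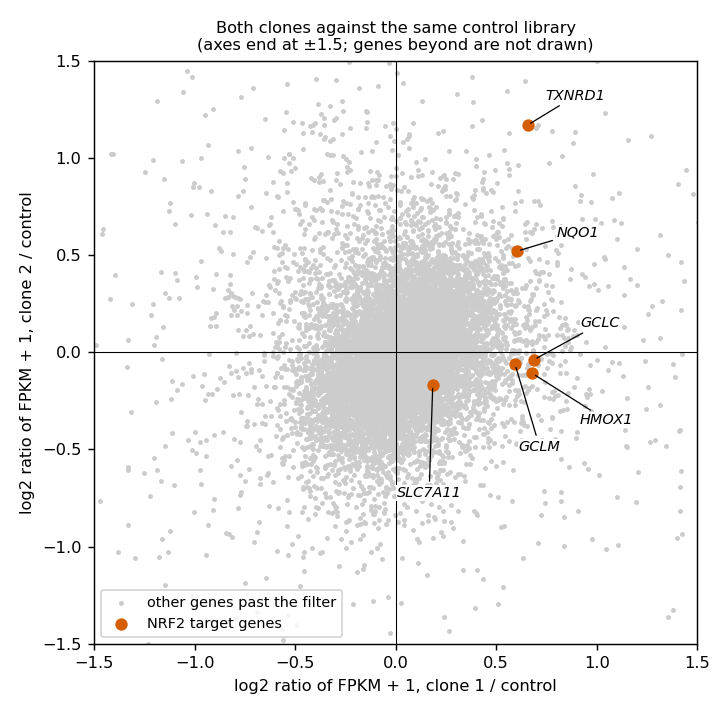
Log2 ratio of FPKM + 1 to the DLD1 control in clone 1 (x axis) and clone 2 (y axis) for genes that passed the filter, with the 6 members that passed in colour. GCLC, GCLM and HMOX1 lie together at 0.59 to 0.69 in clone 1 and close to 0 in clone 2, and TXNRD1 and NQO1 lie above 0 on both axes. Both axes use the same control library.

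The genes that regulate NRF2 were taken as a list of 12, and all 12 passed the filter. Their median log2 ratio was 0.12 in clone 1 and 0.25 in clone 2, beside 0.04 and -0.01 over all genes. On the log2(FPKM + 1) scale 0 of the 12 were 2-fold from the control in either clone, beside 2.02% and 2.06% of all genes. Without the pseudocount MAFF passed in both, at 0.458 times the control in clone 1 and 2.03 times in clone 2. The share of all genes past 2-fold without the pseudocount was not counted. NFE2L2 was listed at 21.8 FPKM in the control, 27.0 in clone 1 and 22.9 in clone 2. Its log2 ratios were 0.30 and 0.07. KEAP1, its inhibitor, was listed at 27.4, 26.3 and 21.6 FPKM in the same order. NFE2L2 was thus highest in clone 1, while KEAP1 was lowest in clone 2. The other parts of the KEAP1 ligase, CUL3 and RBX1, had log2 ratios of 0.25 and -0.09 in clone 1 and of 0.07 and -0.35 in clone 2. BTRC and GSK3B, which take part in a KEAP1-independent route of NRF2 degradation, had log2 ratios of 0.26 and 0.20 in clone 1 and of 0.22 and 0.28 in clone 2. The related factor NFE2L1 stood at -0.03 and 0.18.

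The binding partners and the competitor of NRF2 were mostly higher in clone 2. MAFF, a small MAF protein, was listed at 3.10 FPKM in the control, 1.42 in clone 1 and 6.30 in clone 2, and was the 1 regulator past 2-fold between the clones. MAFG measured 6.50, 8.04 and 9.35 FPKM and MAFK 5.40, 5.06 and 6.85 FPKM in the same order. All 3 small MAF genes were highest in clone 2. The repressor BACH1 was listed at 1.35 FPKM in the control, 1.63 in clone 1 and 2.63 in clone 2. SQSTM1, which draws KEAP1 into autophagy and is itself an NRF2 target, measured 30.7, 32.3 and 45.4 FPKM. Like TXNRD1, the genes BACH1, SQSTM1, MAFG and GSK3B were lowest in the control and highest in clone 2.

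**Figure D4:**
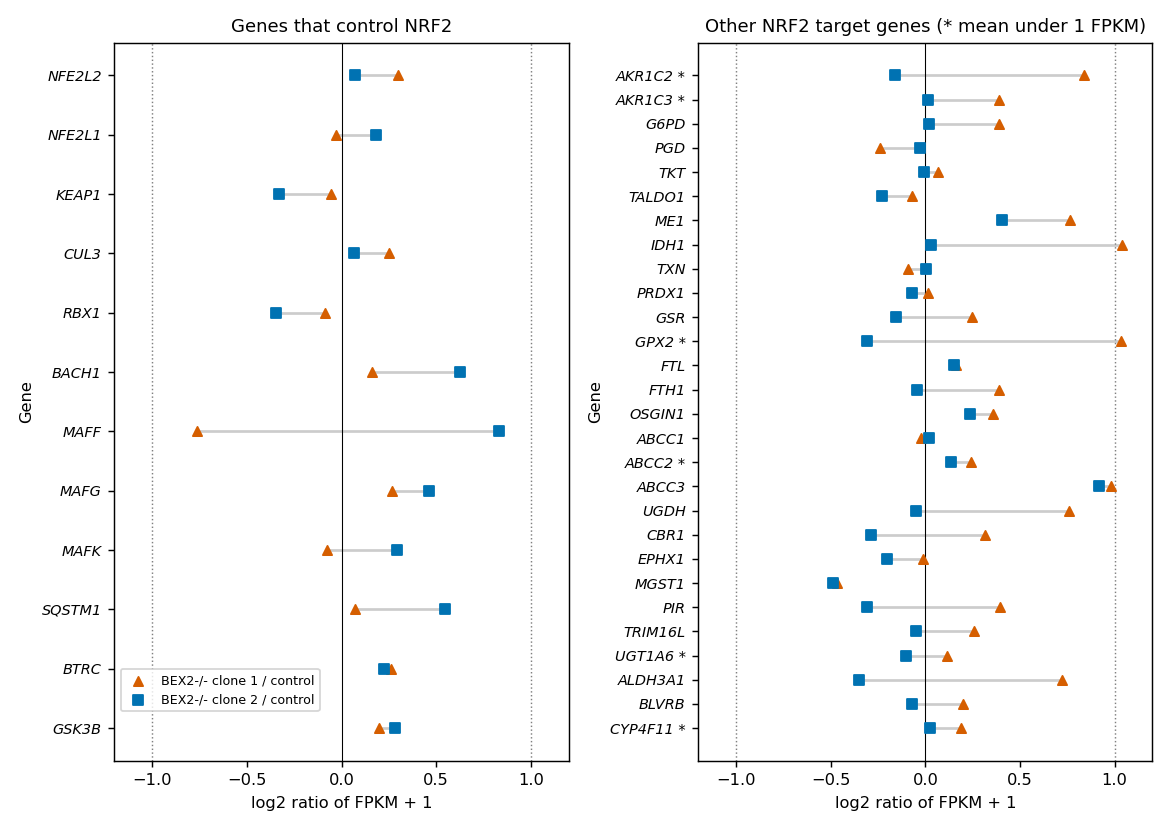
Log2 ratio of FPKM + 1 to the DLD1 control in clone 1 and clone 2 for 12 genes that control NRF2 (left) and 28 other NRF2 targets (right). Dotted lines mark a 2-fold change and asterisks mark genes with a mean under 1 FPKM. In most of the other targets clone 1 lies to the right of clone 2, and MAFF shows the widest gap among the regulators.

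Of 28 other NRF2 targets, 22 passed the filter. Their median log2 ratio was 0.25 in clone 1 and -0.05 in clone 2, and 19 of the 22 were lower in clone 2 than in clone 1, with a median of -0.23, beside 57.8% of all genes and a median of -0.05. Scaled to TPM, the clone 2 median turned to 0.02, beside 0.05 over all genes. On the log2(FPKM + 1) scale a 2-fold change was reached by 1 of 22 in clone 1, by 0 in clone 2 and by 2 between the clones, beside 2.02%, 2.06% and 4.19% of all genes. Without the pseudocount ABCC3 also passed in both clones, at 2.16 and 2.06 times the control in FPKM, with no share of all genes counted on that scale. IDH1, a cytosolic source of NADPH, was listed at 34.4 FPKM in the control, 71.9 in clone 1 and 35.1 in clone 2, and was past 2-fold in clone 1 and between the clones. ALDH3A1, which oxidises aldehydes, was listed at 31.7, 52.9 and 24.6 FPKM and was past 2-fold between the clones. Both genes were highest in clone 1. GPX2, the glutathione peroxidase of the gut lining, did not pass the filter at 0.604, 2.29 and 0.294 FPKM. The most abundant of these targets, FTL (ferritin light chain), TXN (thioredoxin) and PRDX1 (a peroxiredoxin), had log2 ratios to the control between -0.09 and 0.16. FTL stood at 718, 802 and 796 FPKM, TXN at 331, 310 and 331, and PRDX1 at 317, 321 and 302.

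Other genes of these lists were singled out after their values were seen. ABCC3, an exporter of conjugated compounds, was listed at 5.28 FPKM in the control, 11.4 in clone 1 and 10.9 in clone 2. Its log2 ratios were 0.98 and 0.92, and its clones lay as close together as those of NQO1. ME1, which supplies NADPH, stood at 0.76 in clone 1 and 0.40 in clone 2 on the log2 scale. UGDH, which makes the glucuronic acid used for conjugation, stood at 0.76 and -0.05. Like GCLC and HMOX1, UGDH was near the control in clone 2. In contrast, MGST1, a membrane glutathione transferase, was below the control in both, at log2 ratios of -0.47 and -0.49.

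A further list held 19 glutathione and thioredoxin genes that are less firmly tied to NRF2. Of these, 17 passed, with median log2 ratios of -0.14 in clone 1 and -0.16 in clone 2. Past 2-fold were 1 gene in clone 1 (TXNIP, higher), 1 in clone 2 (TXNIP, lower) and 3 between the clones (TXNIP, CAT and SOD2), beside 2.02%, 2.06% and 4.19% of all genes. TXNIP, which binds and inhibits thioredoxin, was listed at 17.5 FPKM in the control, 46.4 in clone 1 and 6.21 in clone 2. Catalase (CAT) was listed at 23.2, 36.6 and 17.6 FPKM and mitochondrial superoxide dismutase (SOD2) at 5.59, 4.98 and 11.0 FPKM. TXNIP and CAT were thus highest in clone 1, and SOD2 was highest in clone 2.

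AKR1B10 had the largest log2 ratio between the clones among the 9 members, and the genes whose pair of ratios to the control lay nearest to its own were KCNK5, ST3GAL4, GLUL, ATP8B1 and CA2, in this order. The measure was the distance between the pairs of log2(FPKM + 1) ratios, from 0.0349 for KCNK5 to 0.107 for CA2, over 3 libraries and protein-coding genes with a mean of at least 5 FPKM. KCNK5, a potassium channel, was listed at 4.84 FPKM in the control, 9.05 in clone 1 and 3.94 in clone 2. AKR1B10 itself lay under the filter, and the pseudocount shrinks its ratios, so the likeness holds on this scale only.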

How the data were processed

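RNA was extracted with TRIzol and sequenced on an Illumina HiSeq instrument from TruSeq RNA libraries. The sample labels show 1 lane for the 3 libraries. The authors deposited FPKM values per Ensembl gene. Per the submitters' processing notes, Trim Galore 0.3.7, STAR 2.5, Cufflinks 2.2.1, DESeq 1.22.1 and build hg19 were used, with no further detail given in the sources used here.

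Symbols, lengths and positions came from GENCODE 29 (GRCh38), which held 56996 of the 60504 identifiers. Coordinates are of GRCh38 and were not converted. Reads were recovered as FPKM times merged exon length times depth, with a tolerance of 0.02. Among genes of 1 annotated transcript, 98.7% to 98.9% of low values came out whole, and among the rest 88.9% to 89.8% did. They were whole in all libraries for 7 of the 9 members. For GCLC and AKR1C1 the nearest whole number was used. If hg19 gene models differed, read numbers of such genes would be approximate.

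Ratios were log2(FPKM + 1), with a filter of a mean of at least 1 FPKM. Genes were named by rule: all 9 members and 12 regulators, other targets past 2-fold or among the 3 most abundant with AKR1C2 and AKR1C3, other listed genes past 2-fold with SLC3A2, and the 5 genes most like the member that differed most between clones. The members and lists were chosen with earlier results of these data known, and lists came from general knowledge. Any other gene named, the motif search, the 50-base windows and the search for overlapping genes were chosen after values were seen. A further marker is not reported here. A count test was not run, since the control had 1 library. The ratio and threshold steps were run on simulated counts with changes past 2-fold that were alike in both clones. That run did not cover 1.5-fold changes, changes in low genes or differences between clones. Alternatives were other pseudocounts, scalings, filters and thresholds, and the omission of each clone. Python 3.11.15 was used with scipy 1.17.1, numpy 2.4.6, matplotlib 3.10.9 and pandas 2.3.3.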

Additional observations from a re-analysis of the deposited data

How the results depend on the processing

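No paired analysis was possible because the control has 1 library and no result comes from a test. Of 232 values of group results recomputed under the alternatives, 194 stayed within the spread between the clones or within 1.5 times the count, and 38 did not. The spread was taken from the same result, so it was wide where the clones differed. For the median ratio averaged over the clones, the omission of either clone thus counted as within it. No group median was past 2-fold in the main setting, so none could be counted as reversed. The median ratio averaged over the clones ranged from -0.05 without clone 1 to 0.63 without clone 2, and the number of members past 2-fold in the remaining clones ranged from 0 to 1. At 1.5-fold in either direction, 5 members passed in clone 1, 3 between the clones and 1 in both clones. Of all 11675 genes, 414 were 1.5-fold higher and 316 lower in clone 1, and 557 higher and 416 lower in clone 2. Between the clones, 727 were higher and 717 lower in clone 2. These numbers also stand beside the 1.5-fold counts of the other lists. Shares of all genes under other pseudocounts, scalings and filters were not counted. Members at least 1.5-fold higher in clone 1 fell to 3 under median-ratio scaling, an alternative applied to this count after the values were seen. Regulators past 2-fold in clone 1 numbered 1 with a pseudocount of 0.1 FPKM, without a pseudocount and at 1.5-fold. In clone 2 they numbered 1 without a pseudocount or as TPM and 2 at 1.5-fold, and between the clones 0 passed at a mean of at least 5 FPKM. Their clone 2 median was 0.355 as TPM. Other targets past 2-fold in clone 1 numbered 2 with either smaller pseudocount, as TPM or unfiltered, 0 under median-ratio scaling and 5 at 1.5-fold. In clone 2, 1 passed with either smaller pseudocount, as TPM or at 1.5-fold. Between the clones 1 passed under median-ratio scaling and 5 at 1.5-fold. For glutathione and thioredoxin genes the clone 1 median was -0.18 under median-ratio scaling, -0.075 as TPM and -0.083 unfiltered. The clone 2 median was -0.089 as TPM and -0.13 unfiltered, and between the clones it was 0.012 under median-ratio scaling. In clone 1, 3 passed 1.5-fold. In clone 2, 2 passed as TPM and 2 at 1.5-fold. Of ATF4 genes, 2 passed 1.5-fold in clone 2 and 1 between the clones. Among protein-coding genes, 0.0398% passed 2-fold in both clones and 0.269% were 1.5-fold higher in both. The causes were not tested.

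Of 159 member ratios, 132 stayed within the spread between the clones. A change of filter cannot alter the ratio of a single gene, so those settings always counted as unchanged. The spread was that of the same gene, so it was wide where the clones differed. As TPM, GCLC in clone 2 changed sign to 0.03, and no other member changed sign. The clone 2 medians turned from -0.05 to 0.01 for the members and to 0.02 for the other targets. The median of all genes was then 0.10 in clone 1 and 0.05 in clone 2. The low members SRXN1, AKR1C1 and AKR1B10 moved most, since their ratios depend on the pseudocount. Depth limits them, at 6 to 69 reads a library, and AKR1C1 could not be told from the control in clone 1. The single control library limits every comparison, and each clone is 1 sample.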

Other observations

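Of the listed glutathione peroxidases and peroxiredoxins that passed the filter, none reached 2-fold on the log2(FPKM + 1) scale, and their order of libraries was mixed. They were singled out with their values known. GPX1, a selenium-dependent glutathione peroxidase, was listed at 135 FPKM in the control, 88.8 in clone 1 and 138 in clone 2. GPX4, which reduces lipid peroxides, was listed at 167, 130 and 173 FPKM, and PRDX5 at 317, 231 and 336 FPKM, so these genes were lowest in clone 1. PRDX1, PRDX2, PRDX3, PRDX4 and PRDX6 were instead lowest in clone 2, with PRDX2 at 139, 126 and 112 FPKM. PRDX3 and PRDX4, peroxiredoxins of mitochondria and of the endoplasmic reticulum, were at 46.3 and 38.4 FPKM in clone 2 beside 62.2 and 49.1 in the control.

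Within the span of TXNRD1, the gene AC089983.1 had 2 reads in the control, 3 in clone 1 and 38 in clone 2. Its exons have none in common with those of TXNRD1. RPL18AP3, in the same span, was instead below the control in both clones by FPKM.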
